A study of Mus musculus with 22 samples.

Results

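The genotype by time interaction in Activin A gastruloids asks whether the difference between Hox-/- and wild-type cultures was the same at 96 h and at 120 h. It used all 8 libraries of the Activin A gastruloid table, of 22 libraries in the series. They fall into 4 groups of 2: wild type at 96 h, Hox-/- at 96 h, wild type at 120 h and Hox-/- at 120 h. The genotype labelled Hox-/- (BADC in the library titles) is described as lacking all Hox function, and both genotypes were mouse embryonic stem cells kept with LIF, CHIR99021 and PD0325901 before use. The labels call the material mixed cells and give no Activin A dose for the gastruloids, no clone and no batch. Gastruloids are aggregates of embryonic stem cells that form parts of the early embryo in culture, and the RNA measured is that of the whole aggregate. The contrast was the Hox-/- minus wild-type difference at 120 h minus the same difference at 96 h. The 39 Hox genes and the chromosome Y genes were left out of every count below.

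Hox genes encode transcription factors that give cells along the head to tail axis their regional identity, and the posterior members act late in axis extension. Activin A is a ligand of the TGF-beta family that signals through receptors shared with Nodal, and it steers stem cells towards mesendoderm, the source of definitive endoderm and of axial and anterior mesoderm. In a gastruloid, presomitic mesoderm is the tail-end tissue in which Notch, Wnt and FGF signals cycle before cells form somites, whereas epithelial genes mark cells that keep tight junctions, such as endoderm.

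The deposited counts summed to between 14953662 and 25806178 per library at 96 h and between 9108085 and 11600760 at 120 h, so the later libraries were shallower. The 39 Hox genes together held 624.8 and 660.5 CPM (counts scaled to the total of the library) in the wild-type libraries at 96 h and 1167 and 1190 CPM at 120 h. In the Hox-/- libraries the sum was 102.3 and 103.8 CPM at 96 h, and 63.79 and 69.48 CPM at 120 h, so every library stood on the side of its label. Libraries of a group were close to each other, with a common biological coefficient of variation of 0.0263. Nothing in the labels says that the 2 libraries of a group came from separate cultures, so p-values measure the spread between these libraries, which may be technical. A group is called at the floor here when both of its libraries hold 3 counts or fewer for a gene, which is 0.116 to 0.329 CPM. Where values are set side by side with "against", wild type comes first unless the sentence says otherwise. In aggregates, fewer cells of a type and less RNA per cell cannot be told apart.

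The genotype effect differed between the times for a large share of genes. Of 16791 genes tested, 3140 had a positive interaction (18.7%) and 3393 a negative one (20.2%) at an adjusted p under 0.05 in edgeR's quasi-likelihood test, which is what "called" means here. A positive value means that the Hox-/- minus wild-type difference lay higher at 120 h than at 96 h. Many of these values were small: 576 positive calls (3.43%) and 1261 negative calls (7.51%) reached 2-fold. At 96 h, 3727 genes (22.2%) were called higher and 2786 (16.6%) lower in Hox-/-, and at 120 h 4194 (25.0%) and 4256 (25.3%). Counts over gene lists below are to be read beside these shares of all genes. The 40 lists hold 717 distinct genes and share members, so counts of different lists are not independent. Positive calls made up 48.1% of interaction calls, 59.1% without a filter on low counts, 58.4% with limma on log2(FPKM + 0.1) and 38.7% with total counts as the only scaling. With total counts as the only scaling, the share of higher calls fell from 57.2% to 42.7% at 96 h and from 49.6% to 34.7% at 120 h. Under that scaling the median log2 difference of all genes moved from -0.02 to -0.13 at 120 h, so small effects are read relative to the median gene.

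Called genes were sorted by when their genotype effect was called. A gene switched when both times were called with opposite signs, which held for 968 genes: 432 were lower at 96 h and higher at 120 h (2.57%), and 536 were higher at 96 h and lower at 120 h (3.19%). Effects that appeared late, called at 120 h and not at 96 h, were the largest class with 1596 genes higher (9.51%) and 1478 lower (8.80%). Fading effects, called at 96 h and not at 120 h, numbered 618 higher (3.68%) and 390 lower (2.32%) in Hox-/- at 96 h. A further 552 genes were higher at both times and more so at 120 h (3.29%), 544 were lower at both and more so at 120 h (3.24%), and 182 kept their sign with a smaller effect. With at least 2-fold wherever a class needs a genotype call, 30 genes (0.179%) switched to higher and 33 (0.197%) to lower, 178 (1.06%) appeared late as higher and 561 (3.34%) as lower, and 58 (0.345%) faded from higher and 105 (0.625%) from lower. So among effects of that size, late lower expression in Hox-/- was the most frequent pattern. The plot of the effect at both times shows these classes.

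**Figure D1:**
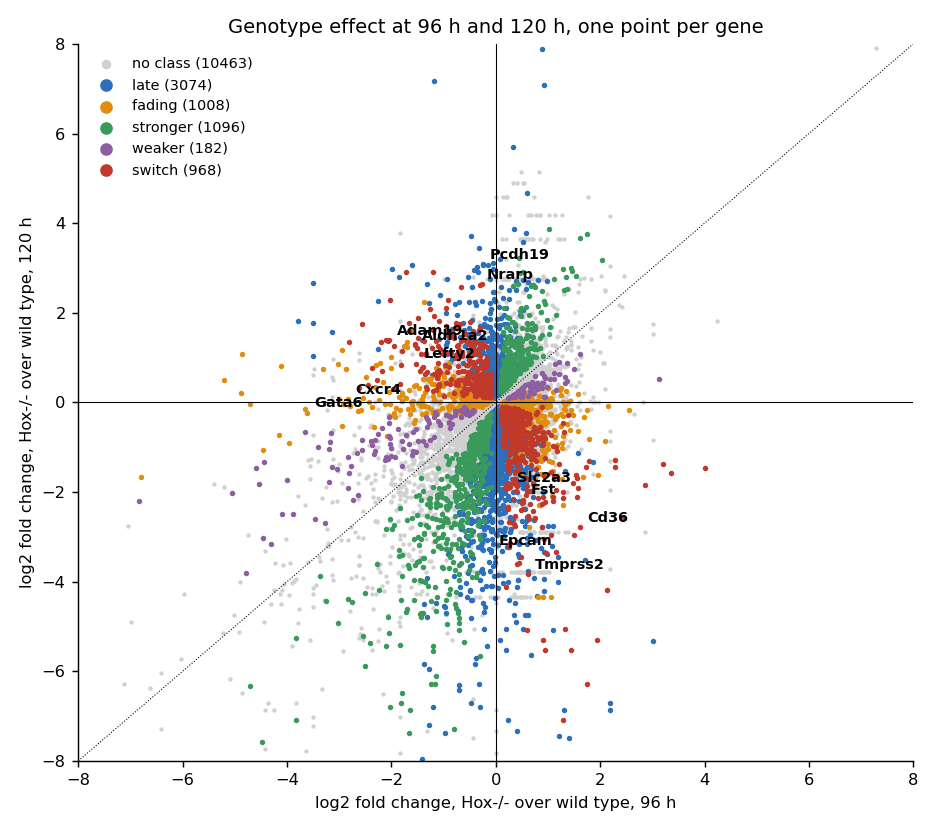
Each point is one of 16791 genes, with the log2 fold change of Hox-/- over wild type at 96 h on the x axis and at 120 h on the y axis, coloured by class. The dotted line marks equal effects, 24 genes lie outside the axes of 8 log2 units, and the 968 switching genes fill the upper left and lower right areas.

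The clearest switches to higher expression were Adam19, Nrarp, Lefty2 and Aldh1a2. Adam19, a membrane metalloprotease (chr11:46055992-46147343, mm10), was at 140 and 143 CPM in wild type at 96 h and at 36.5 and 28.8 CPM in Hox-/-. At 120 h the order had turned, with 62.0 and 56.4 CPM in wild type and 144 and 143 CPM in Hox-/-. Each genotype moved, wild type down and Hox-/- up, and the libraries did not overlap at either time (interaction log2 3.43, SE 0.0859, adjusted p = 2.09e-34 in edgeR). Lefty2, a secreted inhibitor of Nodal, was at 221 and 229 CPM in wild type against 82.2 and 67.5 CPM in Hox-/- at 96 h. It then stood at 244 and 237 CPM against 408 and 400 CPM at 120 h, so wild type was nearly level while Hox-/- rose past it (interaction log2 2.38, SE 0.0684). Aldh1a2, the enzyme that makes retinoic acid in somites, went from 54.1 and 55.8 CPM against 19.1 and 16.7 CPM to 129 and 114 CPM against 273 and 273 CPM (interaction log2 2.82, SE 0.0840). It rose over time in both genotypes, more steeply in Hox-/-. Nrarp, a feedback inhibitor of Notch signalling, had the smallest early difference of these genes, 35.5 and 35.2 CPM against 27.4 and 27.4 CPM, and at 120 h it was at 52.7 and 53.1 CPM against 296 and 310 CPM. Exons of another gene model cover 79.4% of Nrarp, so its counts may be shared.

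**Figure D2:**
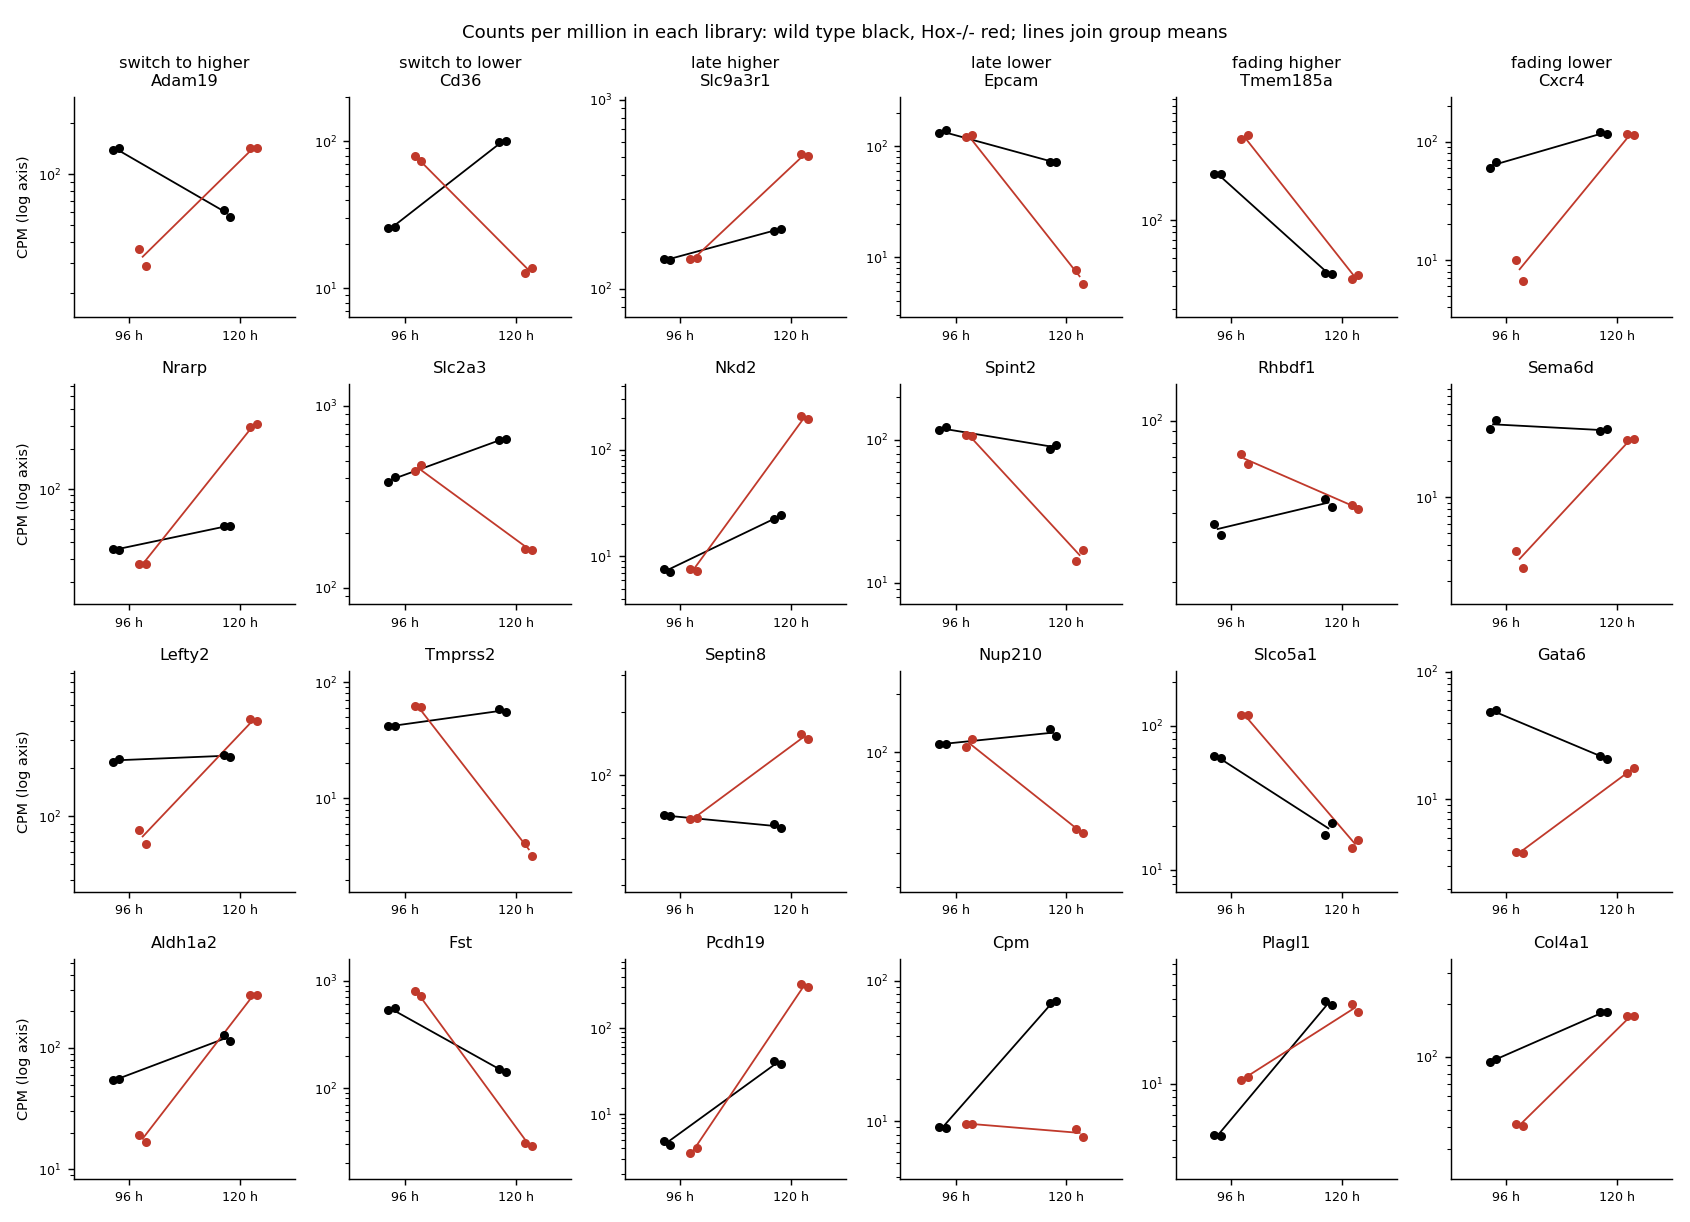
CPM (log axis) in each of the 8 libraries for 4 genes of each class, wild type in black and Hox-/- in red, with lines joining the group means at 96 h and 120 h. In the switching genes the lines cross, in the late genes they part at 120 h, and in the fading genes they come close. Cxcr4, a fading gene, was at 120 and 117 CPM in wild type and 117 and 114 CPM in Hox-/- at 120 h.

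The genes of presomitic mesoderm moved together, and most of their rise in Hox-/- came at 120 h. Of 16 members tested, 13 had a positive interaction and 1 a negative one, with a median of 1.91 on the log2 scale beside -0.05 over all genes. At 96 h, 7 were higher and 3 lower in Hox-/- with a median of 0.21, and at 120 h 15 were higher and 1 lower with a median of 2.42. Among all genes, 18.7% had a positive and 20.2% a negative interaction, and 25.0% were called higher at 120 h. Tbx6, the T-box factor that commits cells to this tissue, switched from 42.3 and 37.4 CPM in wild type against 34.3 and 28.6 CPM in Hox-/- at 96 h to 18.5 and 17.1 CPM against 102 and 105 CPM at 120 h. Tbx6 fell between the times in wild type and rose in Hox-/- (interaction log2 2.92, SE 0.111). Its early call was lost without wild-type 96 h replicate 1 or Hox-/- 96 h replicate 2, which left the late difference. Dll1, the main Notch ligand of the tissue, was already higher at 96 h, with 46.2 and 43.9 CPM against 75.1 and 65.5 CPM, and reached 586 and 587 CPM in Hox-/- against 102 and 105 CPM at 120 h. Pcdh19, a protocadherin of forming somites, was called only at 120 h, with 42.2 and 38.3 CPM in wild type against 325 and 307 CPM in Hox-/-. Mesp2, which sets the border of the next somite, was below 1 CPM in all 4 libraries at 96 h and at 8.22 and 9.22 CPM against 89.0 and 87.3 CPM at 120 h. Msgn1, a second early regulator, showed the other time course: it fell in both genotypes, from 77.2 and 72.9 CPM to 5.51 and 4.17 CPM in wild type, but only to 26.5 and 28.5 CPM from 121 and 114 CPM in Hox-/-. Lfng, which modifies Notch receptors, appeared late with an interaction of 2.52 (SE 0.136). This class held in 14 of 19 alternatives. In the others, which included leaving out replicate 1 of either 96 h group, Lfng was called lower at 96 h and so switched. Hes7, the oscillating repressor, was higher at both times with an interaction of 0.58 (SE 0.0960). Ripply2 was at the floor in both genotypes at 96 h and had no interaction call, although it was higher at 120 h with 6.05 and 6.15 CPM against 34.5 and 33.1 CPM. The exception was Dkk1, a secreted Wnt inhibitor, which was lower at both times and fell to 6.29 and 4.21 CPM in Hox-/- against 56.1 and 57.0 CPM.

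The upstream sequences of the 3 presomitic and somite members with the smallest interaction p are shown because these genes had positive interactions, and they were searched for a T-box site and for the site of RBPJ, the DNA-binding partner of Notch. They are the 250 bases before the start in RefSeq (GRCm38.p6, 5′ to 3′ on the gene's strand), and capitals would mark GGTGTGA or TGGGAA on either strand.
Nrarp, chr2:25180508-25180757, plus strand: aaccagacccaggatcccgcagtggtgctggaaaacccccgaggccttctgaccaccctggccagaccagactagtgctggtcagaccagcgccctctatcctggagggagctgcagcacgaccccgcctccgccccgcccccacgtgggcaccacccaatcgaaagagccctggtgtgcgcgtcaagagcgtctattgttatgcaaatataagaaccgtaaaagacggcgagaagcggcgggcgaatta
Aldh1a2, chr9:71215539-71215788, plus strand: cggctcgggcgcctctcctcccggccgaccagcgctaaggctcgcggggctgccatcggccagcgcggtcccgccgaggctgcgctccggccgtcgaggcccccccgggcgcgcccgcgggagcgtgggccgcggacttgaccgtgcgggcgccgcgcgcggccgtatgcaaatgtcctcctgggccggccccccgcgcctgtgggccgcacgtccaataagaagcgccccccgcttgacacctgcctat
Tbx6, chr7:126781233-126781482, plus strand: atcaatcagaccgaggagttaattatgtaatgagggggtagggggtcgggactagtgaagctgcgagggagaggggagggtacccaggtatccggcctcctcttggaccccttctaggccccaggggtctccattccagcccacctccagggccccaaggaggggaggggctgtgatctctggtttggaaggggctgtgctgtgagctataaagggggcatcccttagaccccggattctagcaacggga
None of these windows held either motif, which says only that these letters are not in this window. Among the presomitic list, 14 of 16 members had a window, and stretches with a match in capitals, with 30 bases on each side, were as follows.
Lfng, chr5:140607176-140607268, plus strand: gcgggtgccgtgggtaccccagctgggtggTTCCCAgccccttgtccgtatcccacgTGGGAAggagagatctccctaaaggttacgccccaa
Hes7, chr11:69120243-69120308, plus strand: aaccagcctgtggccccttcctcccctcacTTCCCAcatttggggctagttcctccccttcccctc
Msgn1, chr12:11209027-11209092, minus strand: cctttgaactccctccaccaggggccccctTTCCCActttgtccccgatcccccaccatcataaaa
Ripply2, chr9:87015380-87015446, plus strand: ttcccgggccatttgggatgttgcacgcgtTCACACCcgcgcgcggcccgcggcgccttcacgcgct
The TGGGAA letters stood in 3 of the 14 windows of 300 bases, in Lfng on both strands, and in 25.6% of all 32851 windows. The GGTGTGA letters stood in 1 of the 14, in Ripply2 on the minus strand, and in 3.98% of all windows. A match is a description of the sequence and not a measured binding site.

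Notch pathway genes included receptor, ligand and target genes with positive interactions. The presomitic list above also holds genes of Notch signalling, such as Dll1, Lfng and Hes7. Of 24 members tested, 16 had a positive and 4 a negative interaction, with a median of 0.57, beside 18.7% and 20.2% of all genes. At 96 h 7 were higher and 7 lower in Hox-/-, beside 22.2% and 16.6%. At 120 h 15 were higher and 6 lower, beside 25.0% and 25.3%. The numbers of negative interactions and of members lower at 120 h were near the background. The receptor gene Notch1 was at 86.3 and 77.2 CPM against 89.3 and 86.3 CPM at 96 h, and at 176 and 159 CPM against 695 and 636 CPM at 120 h. The ligand gene Jag1 switched, from 62.0 and 66.1 CPM against 24.9 and 24.3 CPM to 49.9 and 50.4 CPM against 56.3 and 62.6 CPM. The target genes Hey1 and Heyl had interactions of 2.36 (SE 0.112) and 3.49 (SE 0.543), and Heyl stood at 13.5 and 13.6 CPM against 58.0 and 58.4 CPM at 120 h. Hes1, another Notch target, was lower in Hox-/- at both times with a smaller difference at 120 h (log2 -0.77 at 96 h and -0.20 at 120 h). Its 120 h call was lost in 7 of 19 alternatives, including DESeq2 and leaving out either Hox-/- 120 h replicate or wild-type 120 h replicate 1. Dtx4, which encodes a Deltex ubiquitin ligase, went the other way, with an interaction of -1.79 (SE 0.141).

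Most somite genes rose over time in both genotypes, and 4 of 16 switched to higher in Hox-/-. In wild type, 15 of 16 members tested rose between 96 h and 120 h, beside 37.1% of all genes (37.8% fell), and in Hox-/- 14 of 16 rose, beside 34.9% (37.7% fell). Meox1, Foxc1 and Tcf15, transcription factors of the paraxial mesoderm and newly formed somites, were lower in Hox-/- at 96 h and higher at 120 h. The early call of Tcf15 was lost without wild-type 96 h replicate 1 or either Hox-/- 96 h replicate. Meox1 was at 5.24 and 6.01 CPM against 1.17 and 0.736 CPM, and then at 278 and 290 CPM against 338 and 349 CPM. The genes of somite subdivision did not share this: Tbx18, a marker of the anterior somite compartment, was lower in Hox-/- at 120 h with 19 and 19.3 CPM against 7.76 and 8.42 CPM. Its interaction was not called without wild-type 96 h replicate 1 or Hox-/- 96 h replicate 1. Uncx, of the posterior compartment, was at 11.9 and 11.2 CPM against 11.0 and 11.4 CPM. Over the list, 5 interactions were positive and 2 negative, beside 18.7% and 20.2% of all genes. At 120 h 6 members were higher and 6 lower, beside 25.0% and 25.3%. Of the 16, 9 had no interaction call, 8 had a group at the floor, and only 4 had at least 10 counts in every library.

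Wnt pathway genes more often had positive than negative interactions, and several secreted inhibitors were low in Hox-/- at both times. Of 26 Wnt pathway members, 17 had a positive and 4 a negative interaction, with a median of 0.68, beside 18.7% and 20.2% of all genes. The effector gene Lef1 was at 122 and 123 CPM against 179 and 188 CPM at 96 h and at 87.9 and 83.4 CPM against 415 and 412 CPM at 120 h. The feedback inhibitor Axin2 was at 50.0 and 50.6 CPM in wild type against 173 and 170 CPM in Hox-/- at 120 h, where wild type had fallen from 132 and 124 CPM. Nkd2, a Wnt antagonist named by the late class, went from 7.69 and 7.13 CPM against 7.67 and 7.36 CPM to 22.5 and 24.2 CPM against 207 and 193 CPM. Its relative Nkd1 showed no called difference at 96 h and an interaction of 1.00 (SE 0.0847). The ligand gene Wnt4 switched, with 3.69 and 3.29 CPM against 0.842 and 1.34 CPM at 96 h and 12.4 and 12.2 CPM against 36.2 and 32.8 CPM at 120 h. The secreted inhibitor Frzb was lower at both times, less so at 120 h (log2 -2.26 and -0.71), and the inhibitor Sfrp5 was lower at both times with no interaction call (log2 -3.78 and -4.62). Of 25 FGF pathway genes, 12 had a positive and 8 a negative interaction, beside the same shares of all genes. The receptor gene Fgfr1 rose to 755 and 726 CPM in Hox-/- against 315 and 301 CPM at 120 h. The feedback inhibitor Spry4 switched from a log2 of -0.16 to 1.02, which held in 13 of 19 alternatives. The early call of Spry4 was lost with DESeq2, limma and thinned counts, and without wild-type 96 h replicate 1 or Hox-/- 96 h replicate 2. Cdx1, a caudal homeobox gene downstream of Wnt, was higher at 96 h with 210 and 184 CPM in wild type against 557 and 601 CPM in Hox-/-. At 120 h it was at 13.4 and 10.8 CPM against 137 and 146 CPM, so that the fall over time was smaller in Hox-/- (interaction log2 2.05, SE 0.111).

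Retinoic acid genes had mixed interactions. The enzyme Aldh1a2 and the retinol carrier receptor Stra6 switched to higher, Stra6 with a log2 of -1.19 at 96 h and 0.63 at 120 h. The receptor gene Rarb, itself a retinoic acid target, switched to lower, with 29.6 and 29.9 CPM in wild type against 10.2 and 9.54 CPM in Hox-/- at 120 h. Exons of another gene model overlap 38.4% of Rarb, and its early call was lost without wild-type 96 h replicate 1 or Hox-/- 96 h replicate 2. The receptor gene Rarg was at 47.2 and 47.2 CPM against 102 and 93.9 CPM at that time. Of 14 members tested, 6 interactions were positive and 5 negative, beside 18.7% and 20.2% of all genes.

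Switches to lower expression were led by Cd36, Slc2a3, Tmprss2 and Fst. Cd36, a receptor for long-chain fatty acids, was at 25.6 and 26.1 CPM in wild type against 79.1 and 73.7 CPM in Hox-/- at 96 h. At 120 h it was at 98.9 and 101 CPM against 12.8 and 13.8 CPM, so the genotypes crossed in opposite directions (interaction log2 -4.41, SE 0.0979, adjusted p = 1.50e-36 in edgeR). Fst encodes follistatin, a protein that binds and blocks activin. It was at 531 and 557 CPM against 803 and 713 CPM at 96 h and at 149 and 141 CPM against 30.8 and 28.6 CPM at 120 h, falling in both genotypes and further in Hox-/-. Tmprss2, a serine protease of epithelial cells, was at 42.2 and 41.6 CPM against 61.9 and 61.1 CPM, and later at 58.7 and 55 CPM against 4.14 and 3.18 CPM. Slc2a3, a glucose transporter gene, had a small early excess, 380 and 406 CPM against 439 and 473 CPM, and then 650 and 661 CPM against 164 and 162 CPM. Its relative Slc2a1 switched likewise, to 909 and 937 CPM against 369 and 356 CPM at 120 h, and Vegfa appeared late as lower. The glycolysis and hypoxia-response list as a whole was mixed. Over 26 members, 11 interactions were positive and 6 negative, these 3 genes included, beside 18.7% and 20.2% of all genes. The number of negative ones was near the background. The enzyme genes Pkm and Eno1 had positive values of 0.46 and 0.32. Itga6, an integrin of epithelial cells that was chosen after its values were seen, switched by more than 2-fold at both times, from 69.9 and 74.9 CPM against 139 and 160 CPM to 90.2 and 85.4 CPM against 19.3 and 18.4 CPM.

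Most epithelial genes were far lower in Hox-/- at 120 h than at 96 h. Of 26 members tested, 20 had a negative and 0 a positive interaction, beside 20.2% and 18.7% of all genes, with a median of -2.94. The genotype difference was modest at 96 h, with 16 members lower and 2 higher and a median of -0.41, and at 120 h 24 were lower and 0 higher with a median of -3.55, beside 25.3% of all genes called lower. Over time the wild-type median was -0.25 and the Hox-/- median -2.90. Epcam, an adhesion protein of epithelial cells, was at 131 and 140 CPM against 120 and 127 CPM at 96 h, and at 72.5 and 72.1 CPM against 7.67 and 5.80 CPM at 120 h. Cdh1, which encodes E-cadherin, fell in both genotypes, to 155 and 161 CPM in wild type and to 9.48 and 10.1 CPM in Hox-/-, from 408 and 431 CPM and from 302 and 320 CPM. Krt18, a simple-epithelium keratin, rose in wild type from 45.6 and 52.1 CPM to 157 and 161 CPM and fell in Hox-/- from 29.3 and 28.4 CPM to 5.17 and 4.40 CPM. Its partner Krt8 ended at 205 and 210 CPM against 19.9 and 20.8 CPM. Cldn4, a tight-junction protein gene, was slightly higher in Hox-/- at 96 h (39.8 and 42.9 CPM against 45.1 and 45.8 CPM) and far lower at 120 h (37.8 and 37.7 CPM against 2.16 and 1.87 CPM). This switch held in 12 of 19 alternatives. The early call was lost in the others, which included DESeq2, limma at either pseudocount and leaving out wild-type 96 h replicate 1. Spint2, an inhibitor of epithelial serine proteases, was at 86.5 and 92.2 CPM against 14.2 and 17.1 CPM. Some members were already well below wild type at 96 h: Cldn6 was at 142 and 167 CPM against 21.4 and 20 CPM at 96 h, and Esrp2, a splicing regulator, had log2 differences of -2.54 and -2.42 with no interaction call. Mesenchymal genes took the opposite course less strongly, with 9 positive and 3 negative interactions among 16, beside 18.7% and 20.2% of all genes. The number of negative ones was near the background. Fn1, which encodes fibronectin, was at 629 and 615 CPM against 1510 and 1410 CPM at 120 h, and the repressor Snai1 at 27.9 and 28.1 CPM against 84.6 and 82.1 CPM. Of the 3 with a negative interaction, Snai2 switched to lower with a value of -3.11 (SE 0.445).

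**Figure D3:**
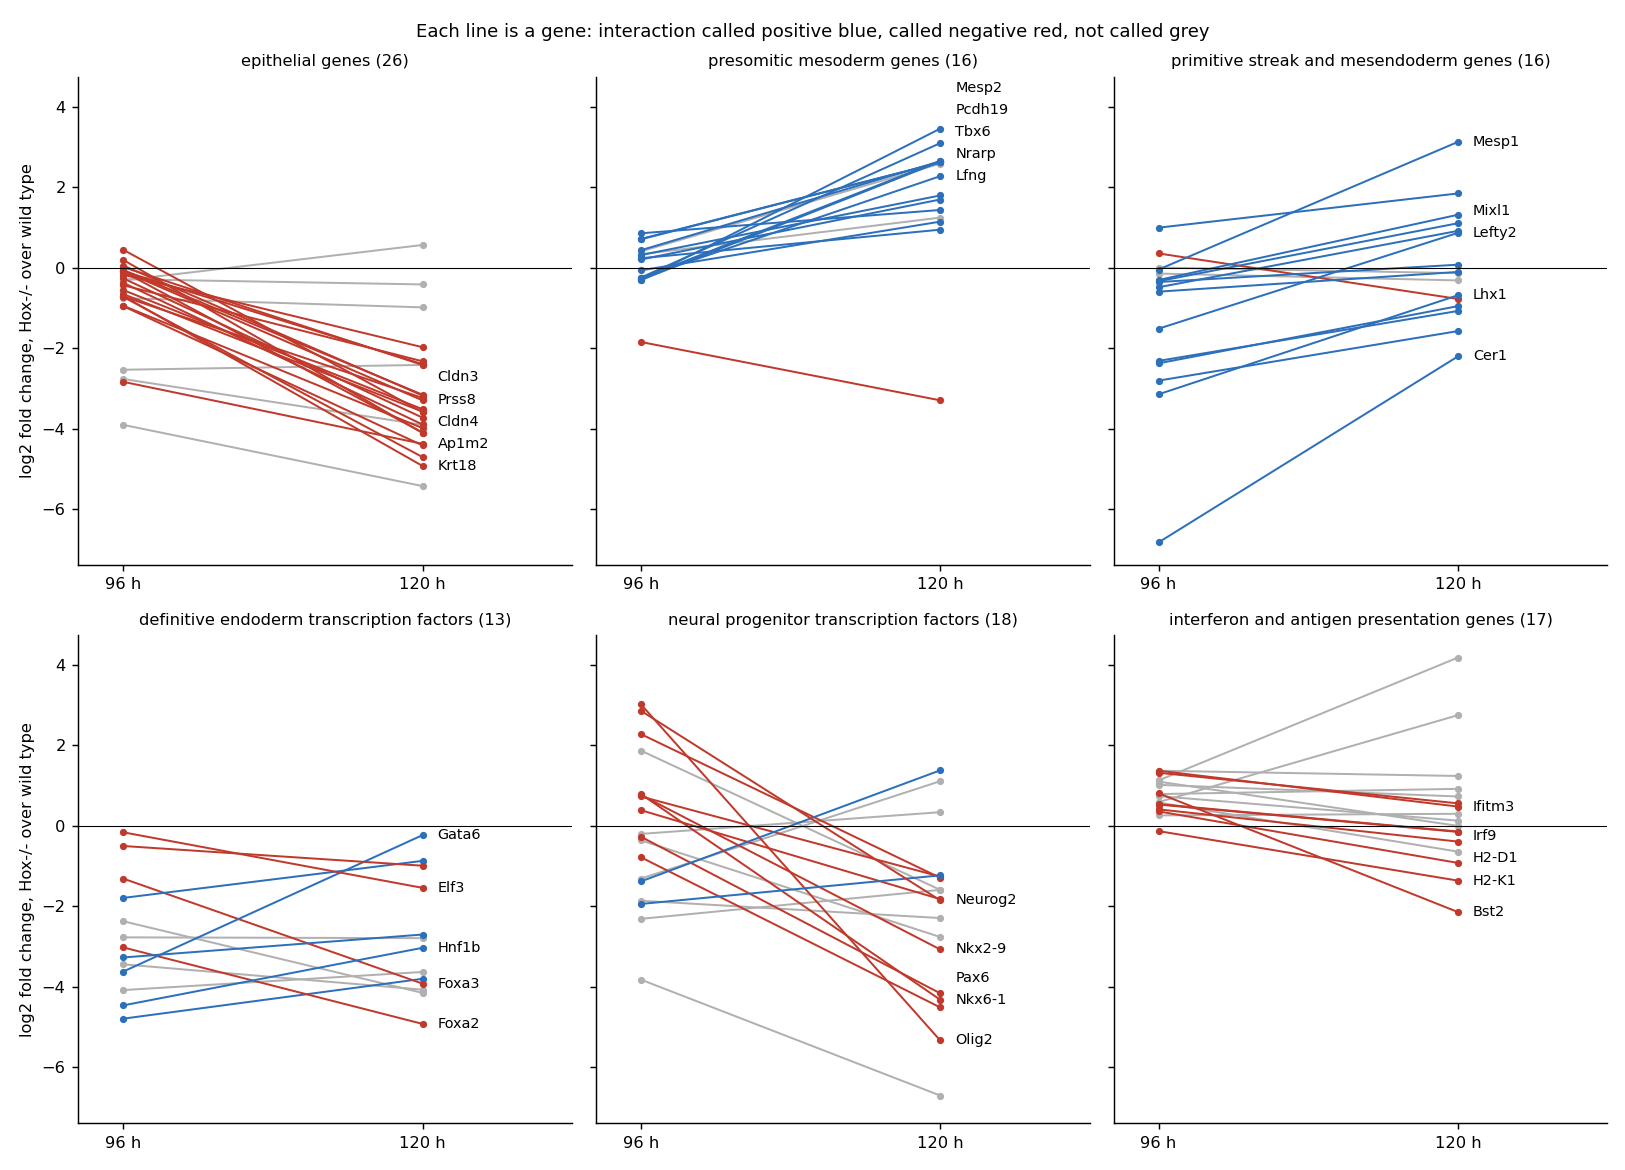
Log2 fold change of Hox-/- over wild type at 96 h and 120 h for every tested member of 6 lists, with interaction calls in blue (positive), red (negative) or grey (none) and stacked labels for the 5 called members with the largest interactions. Epithelial genes run from a median of -0.41 to -3.55 and presomitic genes from 0.21 to 2.42, while fitted values of genes with a group at the floor, such as Olig2, are not bounds.

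Endoderm genes were low in Hox-/- from the start, and their differences changed little as a list. Of 13 transcription factors tested, 11 were lower at 96 h (median -3.02) and 12 at 120 h (median -3.03), with none higher. Their summed level was 393.1 and 441.3 CPM in wild type and 61.67 and 62.26 CPM in Hox-/- at 96 h, and 451.9 and 454.1 CPM against 80.68 and 78.18 CPM at 120 h. Within the list, members moved apart: 5 had a positive and 4 a negative interaction, beside 18.7% and 20.2% of all genes. Gata6, a factor of endoderm and heart, was at 48.1 and 50.4 CPM against 3.88 and 3.81 CPM at 96 h and at 21.8 and 20.8 CPM against 16 and 17.7 CPM at 120 h, as wild type fell and Hox-/- rose. Foxa2, required for endoderm and notochord, was lower at 96 h with 75.8 and 85.9 CPM against 9.63 and 9.56 CPM, and lower still at 120 h with 65.0 and 61.3 CPM against 1.98 and 1.87 CPM. Sox17 was at 57.4 and 57.3 CPM against 4.65 and 2.90 CPM at 120 h, a smaller difference than at 96 h (interaction log2 1.00, SE 0.255), though this was not called without Hox-/- 120 h replicate 1. Otx2 and Hhex were lower at both times with no interaction call, although Otx2 had a positive one in 8 of 19 alternatives, the replicate block and 3 fits that left out a library included. The secreted proteins of visceral endoderm and liver rose over time in wild type and not in Hox-/-: of 11 tested members, 7 rose and 1 fell in wild type, while 0 rose and 4 fell in Hox-/-. Among all genes 37.1% rose in wild type, and 34.9% rose and 37.7% fell in Hox-/-, so the count that fell in Hox-/- was near the background. Spink1 reached 39.9 and 41.6 CPM in wild type against 0.345 and 0.187 CPM, and Ttr, listed at 0 in both Hox-/- libraries, was at 3.78 and 3.62 CPM in wild type, at least 12.7-fold higher. Of the 11, 5 had a group at the floor, and 7 further members were not tested for low counts.

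Primitive streak and mesendoderm genes were mostly lower in Hox-/- at 96 h, and the differences mostly narrowed or turned by 120 h. Over time 12 of the 16 members tested fell and 2 rose in wild type, beside 37.8% and 37.1% of all genes. In Hox-/- 9 fell and 6 rose, beside 37.7% and 34.9%, so the number that rose was near the background. The interaction was positive for 13 and negative for 1 (18.7% and 20.2% of all genes), with a median of 1.32. At 96 h 12 were lower and 2 higher, beside 16.6% and 22.2% of all genes. At 120 h 8 were lower and 6 higher, beside 25.3% and 25.0%. Cer1, a secreted inhibitor of Nodal, BMP and Wnt, was at 137 and 157 CPM in wild type against 1.31 and 1.14 CPM at 96 h, and at 108 and 107 CPM against 21.9 and 21 CPM at 120 h. Lhx1, a factor of anterior mesendoderm, was at 200 and 213 CPM against 22.7 and 21.9 CPM and then at 73.6 and 75.6 CPM against 42.6 and 42.8 CPM. Eomes and Gsc narrowed in the same way, with interactions of 1.42 (SE 0.136) and 1.23 (SE 0.189). Nodal and Mixl1 switched: Nodal was at 117 and 117 CPM against 81.4 and 78.8 CPM, and then at 41.8 and 41.8 CPM against 69.7 and 76.1 CPM. Mesp1, of nascent mesoderm, appeared late with 2.70 and 2.2 CPM against 18.8 and 20.9 CPM. The negative case was T (brachyury), at 1770 and 1690 CPM against 2140 and 2110 CPM at 96 h and at 296 and 313 CPM against 168 and 161 CPM at 120 h. In the Nodal and Activin pathway, 9 of 19 interactions were positive and 3 negative, beside 18.7% and 20.2% of all genes. Its antagonists moved in opposite directions, Lefty2 and Cer1 up and Fst down, whereas the signal transducer Smad2 had no interaction call (log2 0.09, SE 0.0690).

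Several other early deficits were no longer called at 120 h. Cxcr4, the receptor for a chemokine that guides mesendoderm, was at 59.5 and 67.3 CPM against 10.1 and 6.62 CPM at 96 h and at 120 and 117 CPM against 117 and 114 CPM at 120 h. Sema6d, a semaphorin gene, was at 37.1 and 44.4 CPM against 3.55 and 2.54 CPM and then at 35.8 and 37.0 CPM against 30.4 and 30.5 CPM. Sema6d fell slightly in wild type (log2 -0.24) and rose in Hox-/- (log2 3.26). Its remaining 120 h difference was not called, but was called lower with GC and length offsets and with total counts as the only scaling. Col4a1, a basement membrane collagen gene, was at 93.8 and 97.0 CPM against 41.4 and 40.7 CPM, and then at 179 and 181 CPM against 170 and 170 CPM. Runx1, a factor of blood formation, faded likewise from a log2 of -2.93 to -0.03, whereas Flt1, a VEGF receptor gene, stayed low (log2 -4.30 and -3.15). Noto, a notochord factor, was lower at 96 h with 17.0 and 19.7 CPM against 1.08 and 0.468 CPM and listed at 0 in both Hox-/- libraries at 120 h, against 15.5 and 13.5 CPM, at least 49.7-fold lower.

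Early excesses also faded. Tmem185a, a transmembrane protein gene, was at 232 and 231 CPM against 439 and 471 CPM at 96 h and at 38.4 and 37.3 CPM against 34.5 and 36.6 CPM at 120 h. Slco5a1, of the organic anion transporter family, was at 61.6 and 59.3 CPM against 119 and 119 CPM and then at 17.5 and 21.2 CPM against 14.1 and 16.1 CPM. Both genes fell in both genotypes. Slco5a1 was called lower at 120 h, and so switched, in 6 of 19 alternatives, including without Hox-/- 120 h replicate 2 or wild-type 120 h replicate 1. Rhbdf1, an inactive rhomboid protease gene, and Plagl1, an imprinted zinc finger gene, had interactions of -1.03 (SE 0.0990) and -1.39 (SE 0.154), and Plagl1 rose in both genotypes to 38.5 and 35.9 CPM against 36.8 and 32.2 CPM. Interferon and antigen presentation genes were the list most often higher at 96 h: 15 of 17 were higher and 1 lower (median 0.74), beside 22.2% of all genes called higher. At 120 h 6 were higher and 4 lower (median 0.13), beside 25.0% and 25.3% of all genes. Of the 17, 4 had a group at the floor, and the 120 h median was -0.15 with such groups set to the floor. In the list 8 interactions were negative and 0 positive, beside 20.2% and 18.7% of all genes. Over time 16 of 17 had fallen in wild type and 17 of 17 in Hox-/-, beside 37.8% and 37.7% of all genes. Bst2, an interferon-induced membrane protein gene, switched from 135 and 126 CPM against 223 and 216 CPM to 11.2 and 9.33 CPM against 2.24 and 2.06 CPM. Ifit1 was at 23.7 and 21.8 CPM against 48.2 and 45.1 CPM at 96 h and listed at 0 in all 4 libraries at 120 h.

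Imprinted genes, which are expressed from only the maternal or only the paternal copy, had mixed time courses. Of 28 members, 7 interactions were positive and 16 negative, beside 18.7% and 20.2% of all genes. At 96 h 14 were higher and 10 lower in Hox-/-, beside 22.2% and 16.6%. The noncoding RNAs Meg3, Rian and Mirg, made from one imprinted domain, shared an early excess: Meg3 was at 1050 and 997 CPM against 2050 and 1770 CPM at 96 h and at 1500 and 1510 CPM against 1510 and 1470 CPM at 120 h. Rian and Mirg had small differences at 120 h (log2 0.37 and 0.13), and that of Mirg was not called in 11 of 19 alternatives, including without any 1 of the 4 libraries at 120 h. Meg3 was called higher at 120 h when either Hox-/- 96 h replicate was left out, and its interaction was not called with limma at either pseudocount. Peg10 switched to lower and Slc38a4 to higher, with interactions of -1.0 (SE 0.0552) and 1.34 (SE 0.0855). H19, a maternally expressed noncoding RNA, gained, from 10.4 and 9.15 CPM against 42.2 and 33.8 CPM to 277 and 277 CPM against 2280 and 2340 CPM. Grb10, an inhibitor of growth factor signalling, was at 430 and 426 CPM in wild type and at 5.43 and 4.40 CPM in Hox-/- at 120 h, and was low at 96 h too.

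Neural progenitor factors rose over time in wild type more often than the background, and in Hox-/- they did not. Of 18 tested, 2 interactions were positive and 9 negative (median -2.64), beside 18.7% and 20.2% of all genes. The median interaction was -0.64 over the 6 members with at least 10 counts in every library and -0.85 with limma on log2(FPKM + 1). At 96 h 5 were higher and 5 lower, beside 22.2% and 16.6% of all genes. At 120 h 2 were higher and 14 lower, beside 25.0% and 25.3%. In wild type 15 of 18 rose over time, and in Hox-/- 5 rose and 4 fell, beside 37.1% of all genes that rose in wild type and 34.9% that rose and 37.7% that fell in Hox-/-. Sox2, shared by neural and pluripotent cells, switched from 32.7 and 30.4 CPM against 51.0 and 49.5 CPM to 43.0 and 43.3 CPM against 17.4 and 15.8 CPM. Sox1, of the neural plate, switched from a log2 of 2.28 at 96 h to -1.29 at 120 h, where it was at 11.8 and 14.4 CPM against 3.97 and 5.99 CPM. The ventral neural tube factors appeared late: Nkx6-1 was at 14.5 and 16.9 CPM in wild type against 0.948 and 0.468 CPM, and Olig2 at 10.4 and 9.77 CPM against a Hox-/- group at the floor, at least 34.6-fold lower. The interaction of Olig2 was not called without Hox-/- 96 h replicate 1. Pax6 was at 11.6 and 9.55 CPM against 0.517 and 0.561 CPM. Pax7, a dorsal factor also found in somites, switched the other way, to 3.57 and 2.42 CPM against 6.55 and 7.95 CPM. In the list 7 of 18 members had a group at the floor, and 8 more were not tested.

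Several BMP and Hedgehog target genes were lower in Hox-/- at 120 h by more than at 96 h. Id1 and Id2, direct BMP targets, were slightly higher in Hox-/- at 96 h and lower at 120 h. The early calls of both rested on Hox-/- 96 h replicate 1, and that of Id2 also on wild-type 96 h replicate 1. Both early calls were also lost with limma at either pseudocount, and that of Id2 with DESeq2. The switch held in 16 of 19 alternatives for Id1 and in 11 for Id2. Id2 was at 15.8 and 17.0 CPM against 20 and 17.5 CPM and then at 131 and 139 CPM against 18.5 and 20.7 CPM. Id3 was lower at both times with an interaction of -0.66 (SE 0.0732). The ligand gene Bmp4 was higher at 96 h, 23.9 and 19.4 CPM against 47.8 and 49.6 CPM, and this excess faded. Over 22 BMP pathway members, 5 interactions were positive and 7 negative, not far from the 18.7% and 20.2% of all genes. Ptch1, a Hedgehog receptor and target, was at 77.0 and 82.1 CPM against 27.5 and 28.6 CPM at 96 h and at 426 and 411 CPM against 62.0 and 55.5 CPM at 120 h. Gli1, another target, was at 253 and 254 CPM against 14.6 and 17.5 CPM at 120 h, and the ligand gene Shh, with no interaction call, was at 14.5 and 13.4 CPM against 0.259 and 0.468 CPM. The small Gli1 interaction (log2 -0.52, SE 0.184) was not called without Hox-/- 96 h replicate 1 (-0.13) or Hox-/- 120 h replicate 1 (-0.38), and was 0.16 after thinning all libraries to the smallest total. The transducer Gli2 appeared late as lower with an interaction of -0.89 (SE 0.105). Of 16 Hedgehog members, 5 interactions were positive and 7 negative, beside 18.7% and 20.2% of all genes.

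Pluripotency genes mostly fell over time in both genotypes. Of 18 tested, 15 fell in wild type and 15 in Hox-/-, beside 37.8% and 37.7% of all genes. In this list 4 interactions were positive and 10 negative (median -1.78), beside 18.7% and 20.2% of all genes. The number of positive ones was near the background. The median was -0.23 over the 9 members with at least 10 counts in every library and -0.13 with limma on log2(FPKM + 1). Pou5f1, a core pluripotency factor, was at 831 and 818 CPM against 760 and 774 CPM at 96 h, which was not a called difference, and at 23.0 and 26.1 CPM against 6.03 and 5.14 CPM at 120 h. Nanog was at 8.22 and 5.60 CPM against 1.29 and 1.5 CPM at 120 h. Klf4 switched the other way, to 4.65 and 3.62 CPM against 9.14 and 7.39 CPM.

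The remaining named genes of the late classes were called at 120 h and not at 96 h. Slc9a3r1, a scaffold protein of the cell cortex, was at 203 and 208 CPM in wild type against 519 and 505 CPM in Hox-/- at 120 h, with an interaction of 1.36 (SE 0.0574). Septin8, a cytoskeletal GTPase gene, was at 58.3 and 55.8 CPM against 156 and 149 CPM. Nup210, a nuclear pore protein gene, was lower with 131 and 121 CPM against 40.1 and 37.9 CPM. The carboxypeptidase M gene Cpm rose in wild type from 9.02 and 8.91 CPM to 69.7 and 71.8 CPM and was at 8.71 and 7.76 CPM in Hox-/- at 120 h.

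Growth-related lists moved by small amounts. Their counts stand beside 18.7% positive and 20.2% negative interactions among all genes. At 120 h 25.0% of all genes were called higher and 25.3% lower. Of 24 DNA replication and mitosis genes, 14 interactions were positive and 1 negative with a median of 0.19, and at 120 h 19 were higher and 1 lower in Hox-/- (14 and 3 with total counts as the only scaling). Mcm6, part of the replicative helicase, was at 247 and 241 CPM against 327 and 329 CPM at 120 h. Of 21 sterol synthesis genes, 12 interactions were positive and 3 negative. At 120 h 12 sterol genes were higher and 5 lower (8 and 6 with total counts as the only scaling). The numbers of negative interactions and of sterol genes lower at 120 h were near or below the background. Among 11 genes of the Lin28 pathway, which times development, 7 interactions were positive and 1 negative, and Hmga2 switched from 102 and 98.7 CPM against 84.2 and 79.6 CPM to 666 and 621 CPM against 1070 and 1050 CPM. The insulin-like growth factor binding protein genes diverged. Igfbp3 switched to lower, from 541 and 542 CPM against 990 and 971 CPM to 46.3 and 46.0 CPM against 23.8 and 20 CPM. Igfbp4 switched to higher, with a log2 of -1.45 at 96 h and 0.69 at 120 h. Igfbp5 was at 797 and 768 CPM against 81.7 and 83.6 CPM at 120 h. Matrix genes also divided: Nid2, of basement membranes, reached 425 and 389 CPM in Hox-/- against 184 and 191 CPM, while Sparc, a collagen-binding protein gene, was at 130 and 134 CPM against 64.4 and 65.2 CPM. Lipid uptake genes had 1 positive and 8 negative interactions among 16, including Lrp2, an endocytic receptor gene, at -1.42 (SE 0.175).

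**Figure D4:**
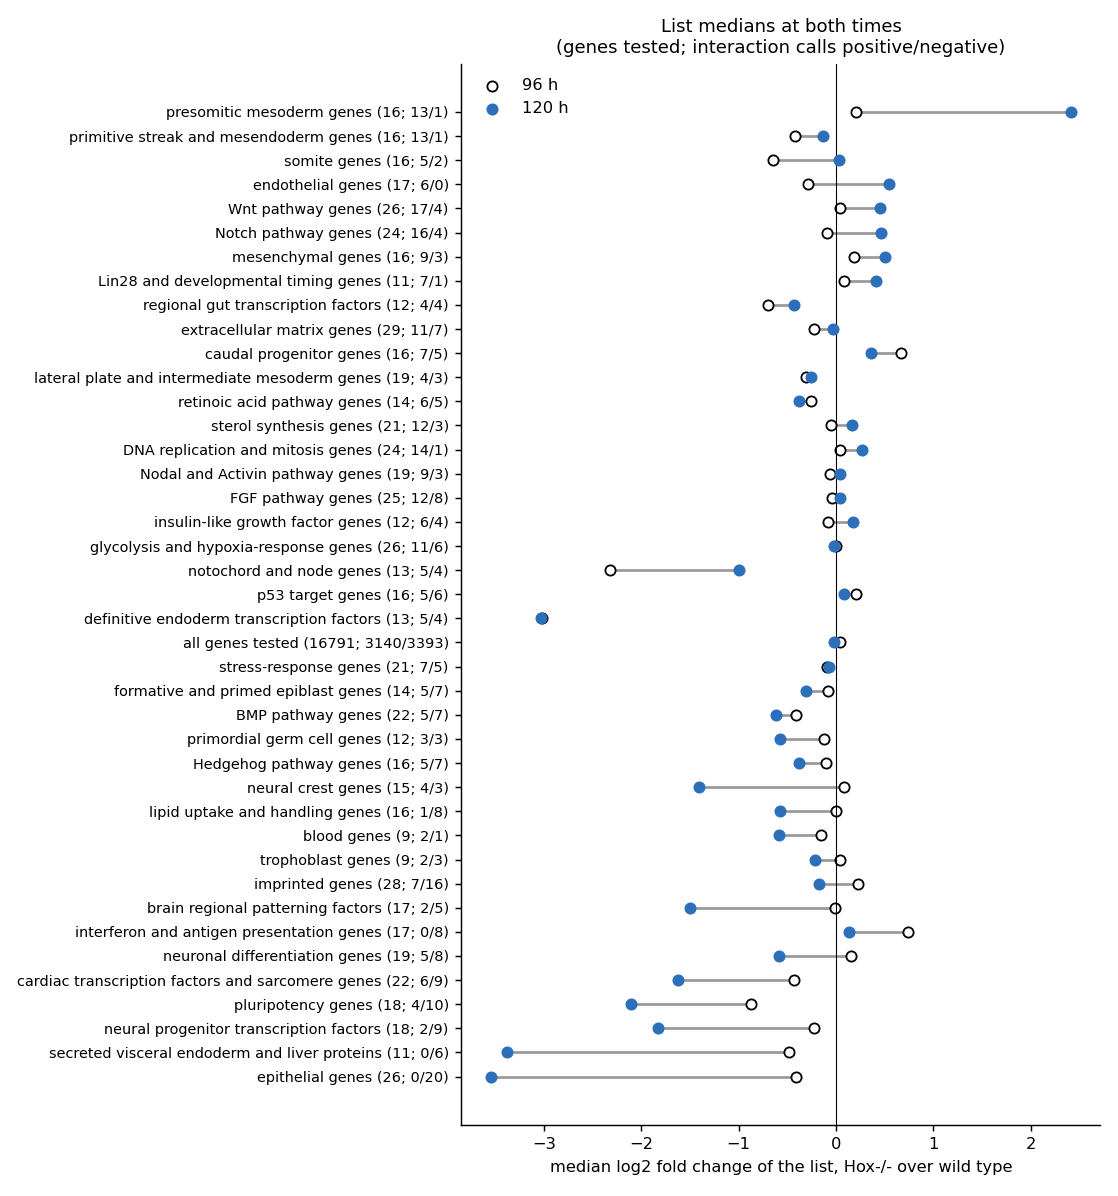
Median log2 fold change of Hox-/- over wild type at 96 h (open circles) and 120 h (filled circles) for 40 lists and for all genes tested, with the number tested and the positive and negative interaction calls in brackets. Presomitic genes lie farthest to the right at 120 h (2.42) and epithelial genes farthest to the left (-3.55), while endoderm factors stay near -3.

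Among markers of other tissues, most cardiac genes were lower in Hox-/- at 120 h. Of 22 cardiac genes, 13 were lower and 5 higher at 120 h, beside 25.3% and 25.0% of all genes. At 96 h 4 were lower and 2 higher, beside 16.6% and 22.2% of all genes. In this list 8 members appeared late as lower and 3 as higher, beside 8.80% and 9.51% of all genes. Of the 22, 6 interactions were positive and 9 negative (median -1.32), and 6 members had a group at the floor. The median was -0.43 without Hox-/- 96 h replicate 1 and -0.06 with limma on log2(FPKM + 0.1). Endothelial genes had 6 positive and 0 negative interactions among 17, beside 18.7% and 20.2% of all genes. The number of positive ones was 3 with DESeq2 and 9 with GC and length offsets. Kdr, a VEGF receptor gene, was at 24.1 and 31.4 CPM against 44.7 and 46.1 CPM at 120 h. The interaction of Kdr was not called with limma at either pseudocount. At 96 h 1 endothelial member was higher and 6 were lower, beside 22.2% and 16.6% of all genes. At 120 h 7 endothelial members were higher and 2 lower, beside 25.0% and 25.3%. Of 20 blood genes 9 were tested, and the globin genes listed were not among them. Of 15 trophoblast genes 9 were tested, with 2 positive and 3 negative interactions, beside 18.7% and 20.2% of all genes. Whether cell composition differed between the genotypes was not tested.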

How the data were processed

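RNA was measured in 8 Activin A gastruloid libraries, with poly(A) selection and a stranded mRNA kit per the labels' protocols. Reads were trimmed with cutadapt 1.16 and aligned to mm10 with STAR 2.7.7a, and Cufflinks 2.2.1 was used, per the submitters' processing notes. The deposited values used were raw read counts per gene and, for 2 alternatives, FPKM values, both made by the authors. The read counter and its strand setting are not given in the sources used here, so reads of overlapping or antisense genes may be shared.

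Counts were fitted with edgeR 4.0.16 (R 4.3.3) by the quasi-likelihood test after filtering low counts (filterByExpr) and TMM scaling, with 1 coefficient per group. P-values were adjusted by Benjamini-Hochberg over 16831 genes, and 16791 were reported after leaving out 40 Hox and chromosome Y genes. Alternatives used DESeq2 1.42.0 and limma 3.58.1, the latter on log2 FPKM with a pseudocount of 0.1 or 1, as well as other scalings and filters, thinned counts, GC and length offsets, a replicate block and each library left out. Figures were drawn with matplotlib 3.10.9. On simulated data with 16831 genes, the interaction test recovered 97.7% of 87 genes changed 2-fold and 100% of 113 changed 3-fold, and 2.46% of its calls were false. The changed genes were drawn from better-counted genes only, all others had no genotype effect, and the spread was the trend fitted here. These rates therefore do not carry over to the real data, where 1252 genes with an interaction of at least 2-fold were not called.

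For each of 6 classes, 4 genes were named: those with the smallest interaction p among genes with an absolute log2 interaction of at least 1, at least 10 CPM on average in 1 group, and genotypes that did not overlap where the class needs a call. From each of 40 gene lists up to 5 called members were named by the same p, with members showing what did not follow. Other members were chosen after their values were seen. The members and lists were chosen with earlier results of these data known, and give no independent support.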

Additional observations from a re-analysis of the deposited data

Results flagged for a closer look

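The genotype effect differed between 96 h and 120 h by the test of the difference itself for 6533 of 16791 genes in edgeR's quasi-likelihood test. The 24 genes named by class also passed this test, and their interaction log2 values follow. Among switches to higher they were 3.43 for Adam19, 2.94 for Nrarp, 2.38 for Lefty2 and 2.82 for Aldh1a2. Among switches to lower they were -4.41 for Cd36, -2.16 for Slc2a3, -4.44 for Tmprss2 and -2.71 for Fst. Genes called higher only at 120 h had 1.36 for Slc9a3r1, 3.13 for Nkd2, 1.52 for Septin8 and 3.34 for Pcdh19. Genes called lower only at 120 h had -3.22 for Epcam, -2.31 for Spint2, -1.65 for Nup210 and -3.14 for the carboxypeptidase M gene Cpm. Epcam kept this class in 15 of 19 alternatives and Spint2 in 16, and in the others both were also called lower at 96 h. Nup210 switched to lower without Hox-/- 96 h replicate 1. Early excesses that faded had -1.01 for Tmem185a, -1.03 for Rhbdf1, -1.28 for Slco5a1 and -1.39 for Plagl1. Early deficits that faded had 2.90 for Cxcr4, 3.51 for Sema6d, 3.39 for Gata6 and 1.19 for Col4a1. Gata6 kept this class in 15 of 19 alternatives and Sema6d in 17, and in the others both were still called lower at 120 h. These genes were picked for a small interaction p, so their values describe the classes.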

How the results depend on the processing

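Interaction calls numbered 4502 with DESeq2, of which 4499 were also called by edgeR, and with limma 4239 at a pseudocount of 0.1 FPKM and 4162 at 1 FPKM. Calls at 96 h fell from 6513 to 3616 with DESeq2, 2757 and 2635 with limma at those pseudocounts and 3853 with thinned counts. Switching genes fell from 968 to 456, 499, 374 and 514 under the same settings. Fading genes fell from 1008 to 600 with DESeq2 and to 505 and 640 with limma. Genes that strengthened fell from 1096 to 504 with DESeq2, 357 and 273 with limma and 446 with thinned counts. The share of higher calls at 96 h was 57.2%, against 30.8% and 34.8% with limma and 44.1% without a filter on low counts. Leaving out each library gave 5480 to 6315 interaction calls, 4996 to 6509 at 96 h, 7202 to 8677 at 120 h, 735 to 861 switching, 2570 to 3342 late and 832 to 962 fading genes. Strengthening genes ranged from 722, without wild-type 96 h replicate 2, to 932. The class of a single gene was less stable: 99 of 432 switches to higher and 55 of 536 to lower kept their class in all 19 alternatives, as did 450 of 1596 late higher and 245 of 1478 late lower genes. Replicate numbers did not pair the libraries (correlations of -0.07 to 0.054 over 11265 genes), and a replicate block gave 6549 interaction calls and 970 switching genes, 949 of them shared. Over 121 named genes and their alternatives, 2226 of 2282 values kept direction and call, and 1 reversed: Gli1, at 0.16 after thinning. Many of these genes were named for a small interaction p in the same 8 libraries. That count was therefore largely set by the choice and says nothing of other genes. Rhbdf1 was not called with limma at either pseudocount. Where alternatives differ, the cause was not tested. Genes at the floor at 120 h are limited by the depth of those libraries.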
